A study of Homo sapiens with 24 samples.

Results

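The nuclear genes that encode subunits of the oxidative phosphorylation complexes were followed in macrophages made from THP1, a human monocytic leukaemia line. Members were taken by name: protein-coding symbols that begin with NDUFA, NDUFB, NDUFC, NDUFS, NDUFV, UQCR, COX4 to COX8 or ATP5, together with SDHA, SDHB, SDHC, SDHD and CYC1, without the NDUFAF assembly factors. This gave 91 of 60617 gene rows, 38 of them of complex I, 4 of complex II, 10 of complex III, 19 of complex IV and 20 of complex V. NDUFA4 and NDUFA4L2 were set with complex IV. After the filter on low counts, 82 members remained among 13098 tested genes, and the other 9 are given by their counts. The groups were CD33KO_shPTPN6 (CD33 knockout with an shRNA against PTPN6), CD33KO_shCTRL (CD33 knockout with empty vector), WT_shPTPN6 (wild type with the same shRNA) and WT_shCTRL (wild type with empty vector). CD33, a Siglec, dampens signals in myeloid cells when it binds sialic acid, and SHP-1, the product of PTPN6, is a tyrosine phosphatase recruited by inhibitory receptors of this kind. All groups had taken up a pLKO.1 lentivirus packaged in HEK-293FT cells during 24 hours, had been selected with 1 µg/ml puromycin after 48 hours of rest, and had been differentiated with 10 ng/ml of the phorbol ester PMA for 48 hours, with 48 hours more in its absence. Each group had 6 labelled samples, but replicate 2 of CD33KO_shPTPN6 was not analysed here, so 23 libraries entered. How the knockout line was made, and whether it is 1 clone, is not given in the sources used here, and nothing says that replicates are separate cultures, so p-values measure only the spread between these libraries.

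Oxidative phosphorylation passes electrons from NADH through complex I, or from succinate through complex II, by way of ubiquinone to complex III, and then by cytochrome c to complex IV, which reduces oxygen. Complexes I, III and IV pump protons across the inner mitochondrial membrane, and complex V, the ATP synthase, lets them return to make ATP. Most subunits are nuclear genes, a few are encoded in mitochondrial DNA, and macrophages are known to shift between this route and glycolysis as they are activated.

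Library totals were 2024032 to 2581042 counts in CD33KO_shPTPN6, 2048161 to 3749258 in CD33KO_shCTRL, 3318001 to 6269304 in WT_shPTPN6 and 4170191 to 5700712 in WT_shCTRL. PTPN6 averaged 7.37, 37.5, 10.5 and 44.4 CPM (read counts relative to the library total, scaled by TMM) in the same order, lower in both hairpin groups than in both empty-vector groups. CD33 averaged 23.4, 20.0, 88.3 and 45.2 CPM, but counts at the 3′ end say nothing of an edit elsewhere in the gene. All 10 macrophage markers were detected in these libraries, and their summed level was 9391 to 9975, 5538 to 5886, 9429 to 11160 and 7274 to 8087 CPM. Lymphoid markers summed to at most 17.4 CPM in any library. The summed level of the macrophage markers moved with group, and its part in the results below was not tested. In bulk RNA, fewer cells of a kind and less RNA per cell cannot be told apart.

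Subunit transcripts as a whole were highest in WT_shPTPN6, lower in WT_shCTRL and lowest in both CD33 knockout groups. The 91 members summed to 17260 ± 420 CPM in CD33KO_shPTPN6 (SD, n = 5), 17240 ± 282 in CD33KO_shCTRL, 23340 ± 710 in WT_shPTPN6 and 19420 ± 1280 in WT_shCTRL (SD, n = 6 each). No library of either knockout group reached the lowest wild-type library: the knockout libraries ended at 17735 CPM and the wild-type ones began at 18512 CPM. Among the WT_shCTRL libraries, replicates 4 and 6 stood at 20145 and 21723 CPM, above the other 4 at 18512 to 18802 CPM. Complex III had the largest change with the knockdown in wild type, 42.5% of its sum, with 2667 ± 87.5 CPM in CD33KO_shPTPN6, 2380 ± 48.5 in CD33KO_shCTRL, 3778 ± 113 in WT_shPTPN6 and 2651 ± 187 in WT_shCTRL. A large part of this sum and its rise was UQCRH, at 1362 to 1494 CPM in WT_shPTPN6 and 805.0 to 908.6 in WT_shCTRL. For complex V the sums were 5335 ± 178, 5281 ± 98.9, 7919 ± 350 and 6520 ± 367 CPM, so that both knockout groups lay below both wild-type groups and did not overlap them. Complex I summed to 4877 ± 94.3, 5040 ± 65.8, 5630 ± 144 and 5153 ± 297 CPM. Complex IV summed to 4102 ± 129, 4245 ± 119, 5699 ± 143 and 4824 ± 433 CPM. Complex II, the smallest, gave 276.9 ± 10.9, 297.6 ± 20.6, 312.1 ± 12.5 and 268.7 ± 16.3 CPM, and was the one sum whose mean was higher in CD33KO_shCTRL than in WT_shCTRL. Counts are taken at 3′ ends, so these sums compare groups and not complexes.

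**Figure D1:**
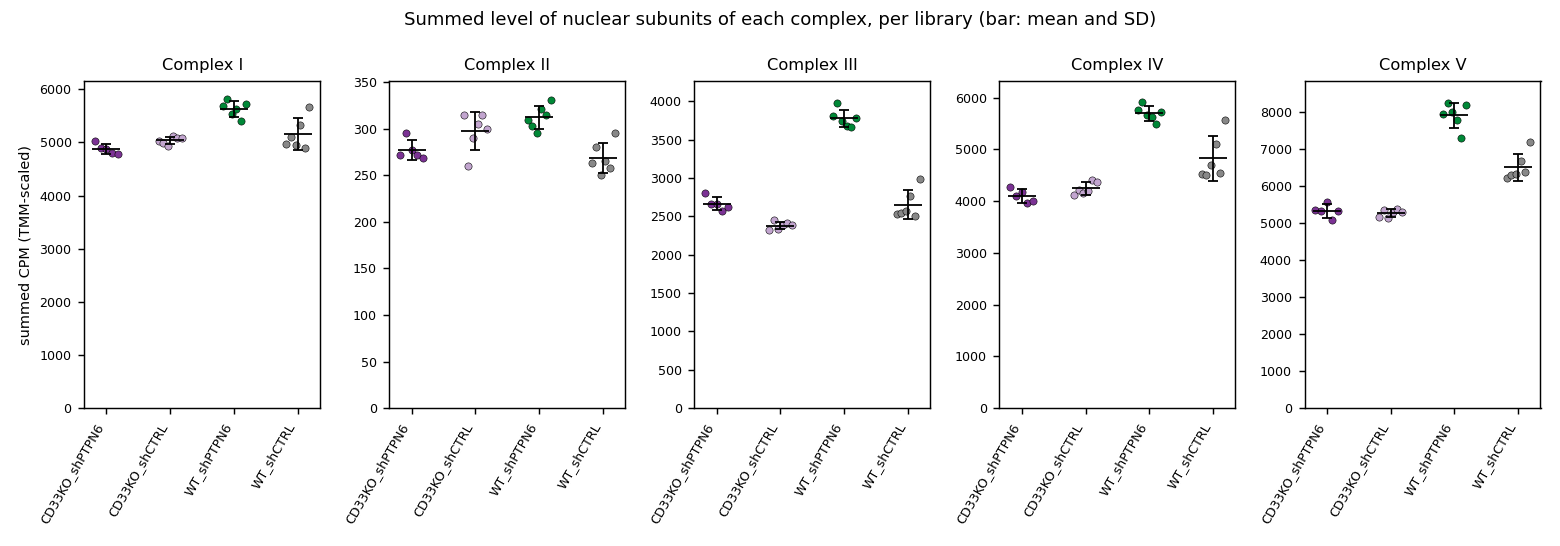
Summed TMM-scaled CPM of the nuclear subunits of each complex (vertical axes, each from 0) in the 4 groups; each point is 1 library and the bar is mean and SD. The WT_shPTPN6 libraries of complex III lie between 3671.3 and 3979.2 CPM, above all other libraries.

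Under the empty vector, most subunit genes that differed between the knockout and wild-type lines were lower in the knockout. Of the 82 tested members, 41 fell and 11 rose in CD33KO_shCTRL relative to WT_shCTRL (quasi-likelihood test of edgeR with an adjusted p under 0.05 by Benjamini-Hochberg, as for every call and adjusted p of a gene below), while 28.4% of all tested genes fell and 28.3% rose. The median log2 fold change was -0.17 over the members and -0.0053 over all tested genes. By complex, the ATP synthase had 16 of 19 tested members lower and 1 higher, complex IV 7 of 12 lower and 1 higher, complex III 4 of 10 lower and 1 higher, and complex II 1 of 4 in each direction. Complex I had 13 of 37 lower and 7 higher. Members whose groups did not overlap numbered 29 lower and 6 higher, against 17.4% and 16.7% of all tested genes.

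PTPN6 knockdown in wild-type cells went with higher subunit transcripts. Of 82 members 54 rose and 8 fell in WT_shPTPN6 relative to WT_shCTRL, with 30.2% of all tested genes higher and 30.4% lower, and the median log2 fold change was 0.30 against 0 over all tested genes. Complex III had 9 of 10 members higher and none lower, with a median of 0.44. The ATP synthase had 14 of 19 higher and 2 lower, complex IV 7 of 12 higher and none lower, complex II 2 of 4 higher and none lower, and complex I 22 of 37 higher and 6 lower. Most of these changes were small, and 12 of the 82 exceeded 1.5-fold in either direction, as did 3977 of all 13098 tested genes. Without WT_shCTRL replicates 4 and 6, the split was 60 higher and 7 lower.

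PTPN6 knockdown in the CD33 knockout line gave a mixed result. Relative to CD33KO_shCTRL, 23 members rose and 19 fell in CD33KO_shPTPN6, with 20.5% of all tested genes higher and 21.6% lower, and the median was 0.0063 against -0.0077 over all tested genes. The member shares are near those of all genes. This split depends on scaling: with library totals alone, where the median over all tested genes was -0.095, it was 14 higher and 27 lower. Complex III again leaned upward with 6 of 10 higher and 1 lower, complex I had 8 higher and 7 lower of 37, complex IV 4 and 4 of 12, and the ATP synthase 5 higher and 6 lower of 19.

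The knockout and wild-type lines differed most when both carried the hairpin. In CD33KO_shPTPN6 relative to WT_shPTPN6, 65 of 82 members fell and 6 rose, with 27.5% of all tested genes lower and 29.0% higher, and the median was -0.42 against 0.0067 over all tested genes. All 12 tested complex IV members fell, as did 17 of 19 of the ATP synthase, 9 of 10 of complex III, 2 of 4 of complex II and 25 of 37 of complex I. Of the members, 40 fell and 6 rose in the knockout line under both vectors. Calls under both vectors together were not counted over all tested genes, so these counts have no share beside them. The 6 that rose under both were UQCRC1, SDHA, NDUFB4, NDUFS6, NDUFS8 and NDUFA13.

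**Figure D2:**
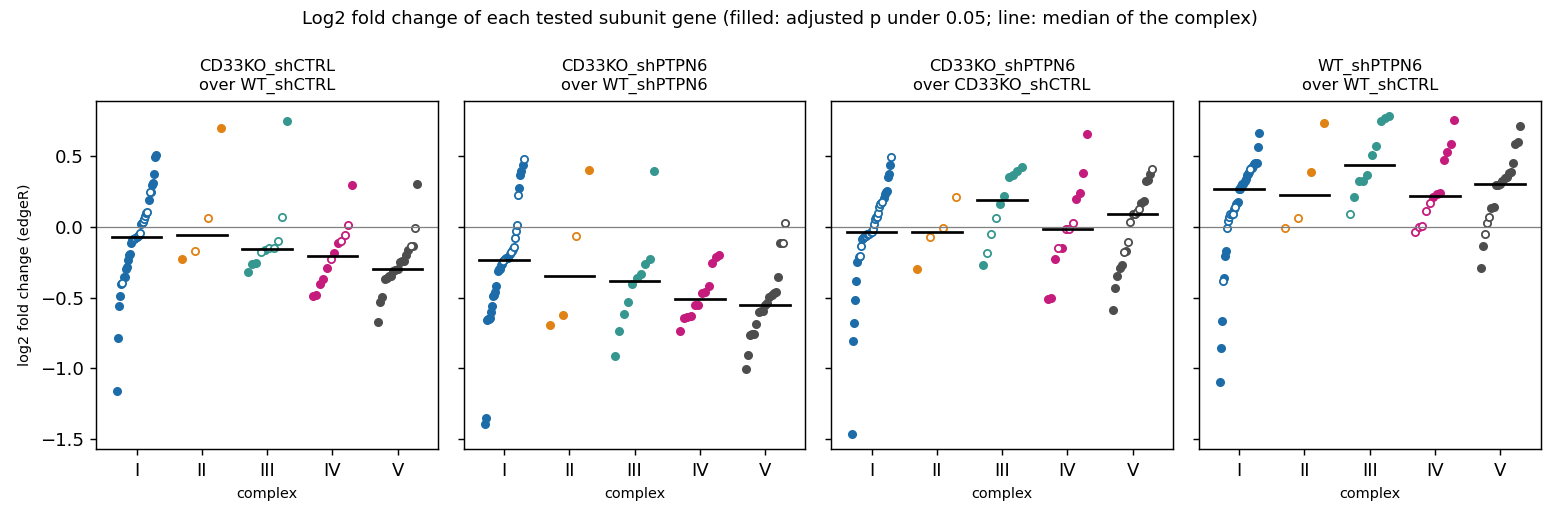
Log2 fold change (vertical axis) of each tested member by complex in 4 comparisons, each titled with the group on top first; filled points have an edgeR adjusted p under 0.05 and the line is the median of the complex. The ATP synthase medians are -0.30 and -0.55 for the knockout under the empty vector and under the hairpin, and the complex III medians are 0.19 and 0.44 for the knockdown in the knockout and in wild type.

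Complex I had members called in both directions, in the catalytic core and among the accessory subunits. Of the 7 nuclear core subunits, which carry the flavin and the iron-sulfur clusters, 3 rose and 1 fell in CD33KO_shCTRL relative to WT_shCTRL, and of the 30 accessory subunits 4 rose and 12 fell. Over all tested genes 28.3% rose and 28.4% fell, and a difference between core and accessory subunits was not tested. NDUFS8, a core subunit with iron-sulfur clusters, had 133.2, 131.4, 117.5, 118.9 and 118.4 CPM in CD33KO_shPTPN6, 88.57 to 99.28 (median 89.35) in CD33KO_shCTRL, 90.02 to 115.2 (median 103.3) in WT_shPTPN6 and 53.84 to 84.77 (median 62.27) in WT_shCTRL. Every knockout library with empty vector was above every WT_shCTRL library, and every CD33KO_shPTPN6 library was above all others. NDUFS8 rose by a log2 fold change of 0.51 ± 0.0737 (SE, adjusted p = 3.61e-09) with the knockout and by 0.67 ± 0.0677 (adjusted p = 2.78e-15) with the knockdown in wild type. The core subunits NDUFV1, which binds NADH, and NDUFS1 also rose in CD33KO_shCTRL, with log2 fold changes of 0.25 ± 0.0629 and 0.19 ± 0.0683. The NDUFS1 call was lost without CD33KO_shCTRL replicate 5, with library totals alone and without the filter (adjusted p = 0.0716, 0.0846 and 0.135). NDUFS3, another core subunit, had a knockdown effect of -0.09 ± 0.0646 in the knockout (adjusted p = 0.289) and rose by 0.43 ± 0.0517 in wild type (adjusted p = 2.98e-12).

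The member with the largest fall under both changes together was NDUFA12, an accessory subunit that sits on the matrix arm and is related in sequence to the assembly factor NDUFAF2. It had 16.71, 19.10, 9.381, 10.25 and 13.02 CPM in CD33KO_shPTPN6, 29.65 to 47.69 (median 38.58) in CD33KO_shCTRL, 33.22 to 40.14 (median 36.13) in WT_shPTPN6 and 55.38 to 72.03 (median 66.26) in WT_shCTRL. The groups with 1 change overlapped each other, lay below every WT_shCTRL library, and lay above every CD33KO_shPTPN6 library. Its log2 fold change was -0.79 ± 0.0917 with the knockout, -0.85 ± 0.0837 with the knockdown in wild type and -2.25 ± 0.124 with both (adjusted p = 7.02e-13, 2.42e-16 and 1.72e-32). The knockdown effect in the knockout was more negative than in wild type, by a log2 difference of -0.61 ± 0.17 (adjusted p = 0.00308). The gene lies on the minus strand of chromosome 12 at 94897055 to 95003770 (GRCh38).

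NDUFA9, an accessory subunit at the junction of the matrix and membrane arms, followed the line and not the hairpin. Its level was 23.59, 26.37, 28.59, 28.20 and 28.08 CPM in CD33KO_shPTPN6, 22.75 to 33.70 (median 26.76) in CD33KO_shCTRL, 65.01 to 73.10 (median 68.62) in WT_shPTPN6 and 56.65 to 65.78 (median 61.50) in WT_shCTRL. The highest of the 11 knockout libraries was below the lowest of the 12 wild-type libraries. The log2 fold change was -1.16 ± 0.0884 under the empty vector (adjusted p = 1.19e-22) and -1.35 ± 0.0972 under the hairpin (adjusted p = 3.28e-24). With the knockdown in the knockout line it was -0.02 ± 0.118 (adjusted p = 0.922), and the rise of 0.18 ± 0.0693 in wild type was lost with library totals alone (adjusted p = 0.25).

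NDUFB6, a membrane-arm accessory subunit, followed the hairpin. It had 35.39, 28.64, 28.59, 34.35 and 25.23 CPM in CD33KO_shPTPN6, 37.80 to 60.75 (median 54.25) in CD33KO_shCTRL, 22.06 to 29.66 (median 26.30) in WT_shPTPN6 and 48.33 to 60.92 (median 55.15) in WT_shCTRL. No hairpin library reached the lowest empty-vector library of its own line. Knockdown changed it by -0.80 ± 0.113 in the knockout and -1.10 ± 0.0886 in wild type (adjusted p = 2.05e-09 and 4.16e-21). NDUFB6 overlaps SMIM27 on the opposite strand near its 3′ end. That gene has 1277 counts in all libraries against 3475 for NDUFB6, and whether counting used strand is not given in the sources used here, so these counts are uncertain.

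Accessory subunits that rose with the knockout under the empty vector included NDUFB4, at the far end of the membrane arm, NDUFS6, which binds zinc, NDUFB9 and NDUFA13, which is also known as GRIM-19. NDUFB4 had 252.8 to 285.5 CPM in CD33KO_shPTPN6, 241.7 to 277.0 in CD33KO_shCTRL, 182.3 to 221.0 in WT_shPTPN6 and 174.7 to 197.3 in WT_shCTRL, so the lines did not overlap under either vector. Its log2 fold change with the knockout was 0.39 ± 0.0537 under the hairpin and 0.50 ± 0.0504 under the empty vector (adjusted p = 3.22e-10 and 1.16e-15). NDUFS6 showed 0.44 ± 0.0488 and 0.38 ± 0.0462 in the same order, and the knockdown gave 0.06 ± 0.0494 in the knockout and -0.01 ± 0.0455 in wild type, neither of which passed the test. NDUFAB1, the mitochondrial acyl carrier protein, fell with the knockdown, with log2 fold changes of -0.52 ± 0.0584 in the knockout and -0.17 ± 0.0479 in wild type. NDUFS4, an accessory subunit of the electron-input arm, fell by 0.36 ± 0.0831 with the knockdown in wild type (adjusted p = 0.000105). NDUFB2 had -0.49 ± 0.0561 with the knockout (adjusted p = 4.65e-13), and it shares bases near its 3′ end with BRAF on the opposite strand. NDUFB9 rose under the empty vector (0.29 ± 0.0488, adjusted p = 1.26e-07) and had -0.23 ± 0.0518 under the hairpin (adjusted p = 9.35e-05). It meets MTSS1 on the opposite strand near its 3′ end, as NDUFA13 meets YJEFN3 on the same strand, so these counts are uncertain too.

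**Figure D3:**
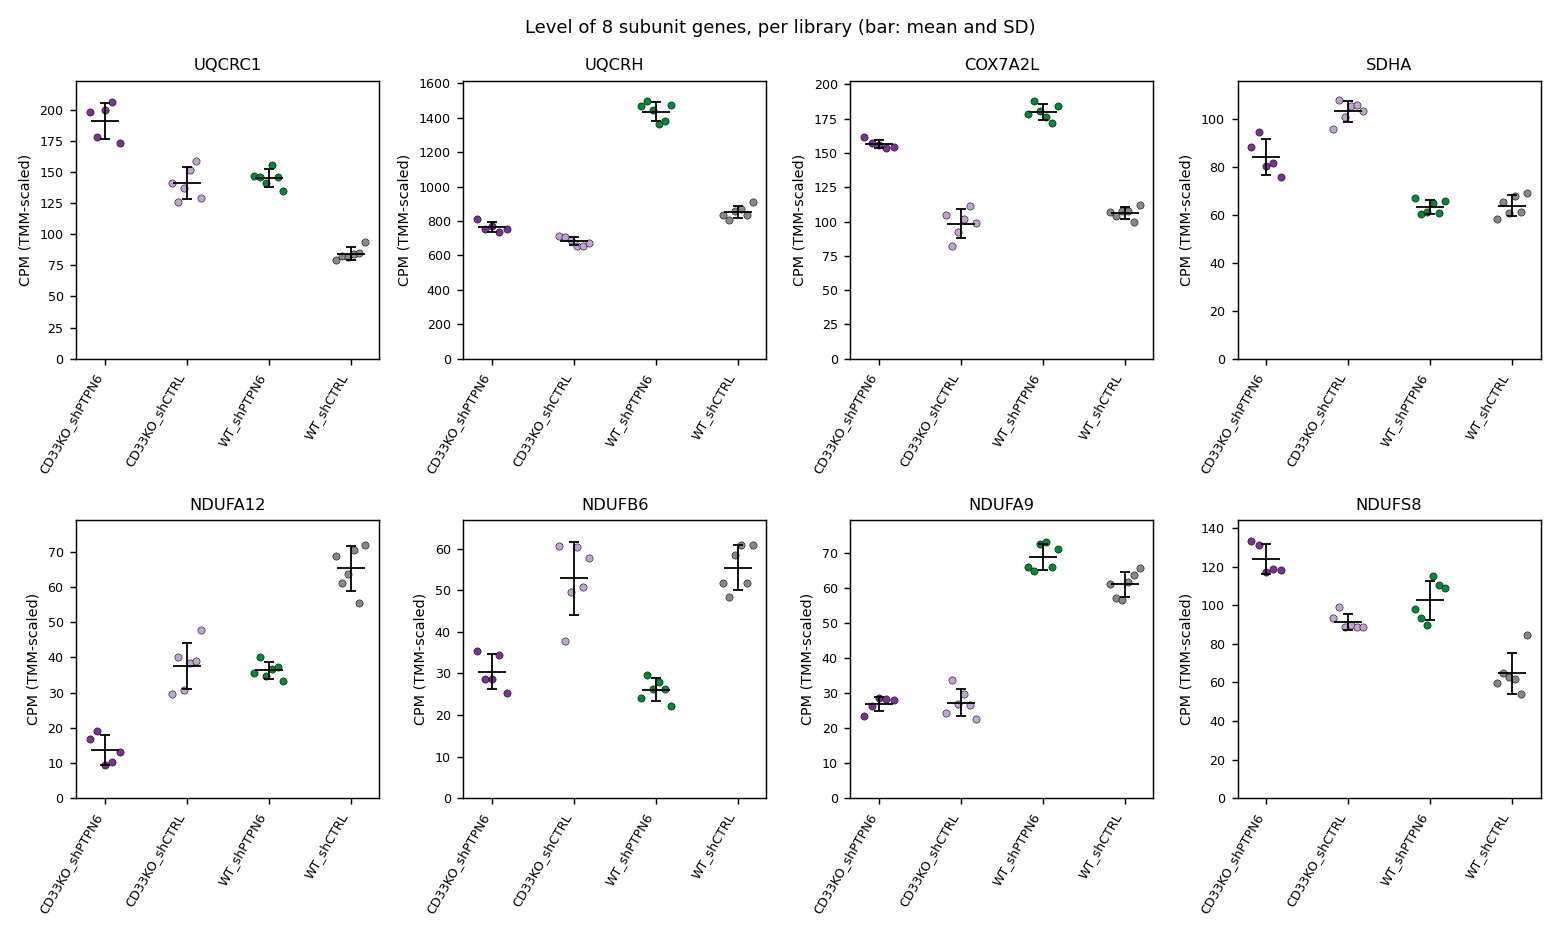
TMM-scaled CPM (vertical axes, each from 0) of 8 members in the 4 groups; each point is 1 library and the bar is mean and SD. SDHA and NDUFA9 separate by line, NDUFB6 and COX7A2L by hairpin, NDUFA12 is lowest and UQCRC1 and NDUFS8 highest in CD33KO_shPTPN6, and UQCRH stands out in WT_shPTPN6.

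In complex II, the succinate dehydrogenase shared with the citric acid cycle, each subunit had its own pattern. SDHA, the flavoprotein that oxidises succinate, had 88.46, 94.57, 80.41, 81.51 and 75.69 CPM in CD33KO_shPTPN6, 95.75 to 107.9 (median 104.4) in CD33KO_shCTRL, 60.51 to 67.28 (median 63.12) in WT_shPTPN6 and 58.29 to 69.25 (median 63.27) in WT_shCTRL. Every knockout library was above every wild-type library. The log2 fold change with the knockout was 0.40 ± 0.0747 under the hairpin and 0.70 ± 0.0663 under the empty vector (adjusted p = 1.99e-06 and 4.98e-17). With the knockdown SDHA fell by 0.30 ± 0.0749 in the knockout (adjusted p = 0.000515) and had -0.01 ± 0.0654 in wild type (adjusted p = 0.95). The difference of -0.30 ± 0.0995 between these effects had an adjusted p of 0.0167, which was 0.0543 without CD33KO_shPTPN6 replicate 6. Rows of SDHA pseudogenes held 11.4% of the counts of SDHA and these rows together, so some of its counts could be misassigned. SDHB, the iron-sulfur subunit, went against SDHA between the lines, with -0.62 ± 0.0787 under the hairpin and -0.22 ± 0.0734 under the empty vector (adjusted p = 1.98e-11 and 0.00631). With the knockdown SDHB had -0.01 ± 0.0873 in the knockout (adjusted p = 0.939) and rose by 0.39 ± 0.0643 in wild type (adjusted p = 9.19e-08). Of the membrane anchors, SDHD rose by 0.74 ± 0.128 with the knockdown in wild type at a median of 35.52 CPM in WT_shPTPN6 against 21.94 in WT_shCTRL, and SDHC was not called in any comparison.

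Complex III, the cytochrome bc1 complex, held UQCRC1, whose rise was the largest of all tested members with the knockout, with the knockdown in wild type and with both. This core protein of the matrix side had 198.1, 177.8, 199.7, 206.1 and 172.9 CPM in CD33KO_shPTPN6, 125.7 to 159.2 (median 139.3) in CD33KO_shCTRL, 135.1 to 156.0 (median 145.9) in WT_shPTPN6 and 79.61 to 94.04 (median 83.05) in WT_shCTRL. The groups with 1 change overlapped each other and stood between the other 2 groups without overlap. UQCRC1 rose by 1.18 ± 0.0621 with both changes, 0.75 ± 0.0605 with the knockout and 0.78 ± 0.0569 with the knockdown in wild type (adjusted p = 3.98e-34, 4.34e-21 and 6.09e-24). In the knockout line the knockdown added 0.43 ± 0.0632, which was less than in wild type by a log2 difference of -0.35 ± 0.0851 (adjusted p = 0.000496). Its partner core protein UQCRC2 did not follow it: it fell by 0.17 ± 0.0617 with the knockout (adjusted p = 0.017, or 0.105 without CD33KO_shCTRL replicate 1) and had 0.09 ± 0.0567 with the knockdown in wild type (adjusted p = 0.154).

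UQCRH, the hinge protein that helps cytochrome c1 meet cytochrome c, responded to the hairpin mainly in wild type. It had 809.4, 753.9, 768.8, 734.6 and 754.0 CPM in CD33KO_shPTPN6, 653.8 to 711.1 (median 683.6) in CD33KO_shCTRL, 1362 to 1494 (median 1454) in WT_shPTPN6 and 805.0 to 908.6 (median 848.9) in WT_shCTRL. The WT_shPTPN6 libraries stood far above all others, and the knockout groups did not overlap each other. The knockdown effect on UQCRH was 0.16 ± 0.0467 in the knockout (adjusted p = 0.00277, or 0.171 with library totals alone) and 0.75 ± 0.0423 in wild type (adjusted p = 7.38e-32). The difference was -0.59 ± 0.063 (adjusted p = 9.45e-14). Reads of its near-identical copy UQCRHL cannot be told apart with certainty, but that row held at most 20.82 CPM in any library. CYC1, cytochrome c1 itself, rose with the knockdown by 0.37 ± 0.0601 in the knockout and 0.77 ± 0.0509 in wild type (adjusted p = 1.37e-07 and 6.61e-27). UQCRB, which helps bind ubiquinone, rose by 0.35 ± 0.0516 and 0.32 ± 0.0447 in the same order, and the Rieske protein UQCRFS1 had 0.06 ± 0.104 in the knockout (adjusted p = 0.653) and rose by 0.33 ± 0.0763 in wild type (adjusted p = 0.000124).

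In complex IV, cytochrome c oxidase, 7 of the 12 tested members fell with the knockout under the empty vector, against 28.4% of all tested genes. COX7C, a small membrane subunit, had 419.1 to 489.5 CPM in CD33KO_shPTPN6, 329.8 to 360.9 in CD33KO_shCTRL, 686.7 to 696.9 in WT_shPTPN6 and 449.6 to 521.6 in WT_shCTRL. It fell by 0.49 ± 0.046 with the knockout (adjusted p = 1.92e-17) and rose with the knockdown by 0.38 ± 0.05 in the knockout and 0.53 ± 0.0435 in wild type (adjusted p = 1.71e-10 and 1.26e-20). COX6A1 and COX6C, also of the outer shell of small subunits, fell with the knockout, with log2 fold changes of -0.48 ± 0.0564 and -0.40 ± 0.0478 (adjusted p = 1.53e-12 and 1.5e-12). COX5A, a matrix-side subunit, fell by 0.37 ± 0.0517 with the knockout (adjusted p = 6.21e-10) and rose by 0.48 ± 0.0473 with the knockdown in wild type. COX4I1, the common isoform of subunit 4, rose with the knockdown by 0.24 ± 0.0531 in the knockout and 0.59 ± 0.0473 in wild type (adjusted p = 9.69e-05 and 4.32e-21).

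COX5B was the 1 complex IV member that rose in CD33KO_shCTRL. The zinc-binding subunit had 393.7 to 488.3 CPM (median 433.8) in CD33KO_shPTPN6, 563.3 to 678.5 (median 616.0) in CD33KO_shCTRL, 475.0 to 533.2 (median 509.8) in WT_shPTPN6 and 430.3 to 625.1 (median 478.8) in WT_shCTRL. The control groups of the lines overlapped, while the knockdown and control libraries of the knockout line did not. COX5B changed by 0.30 ± 0.0672 with the knockout under the empty vector (adjusted p = 0.000359) and by -0.50 ± 0.0739 with the knockdown in the knockout (adjusted p = 1.61e-06), against 0.00 ± 0.0663 with the knockdown in wild type (adjusted p = 0.957). NDUFA4, found with complex IV in its purified form, had a knockdown effect of -0.51 ± 0.0632 in the knockout (adjusted p = 1.2e-10) and -0.04 ± 0.0531 in wild type (adjusted p = 0.575).

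COX7A2L, which tethers complexes III and IV in supercomplexes and is no subunit of the free enzyme, rose with the hairpin in both lines. It had 161.7, 157.3, 155.5, 153.8 and 154.6 CPM in CD33KO_shPTPN6, 81.98 to 111.6 (median 100.5) in CD33KO_shCTRL, 171.7 to 187.5 (median 179.6) in WT_shPTPN6 and 99.45 to 111.9 (median 107.3) in WT_shCTRL. No hairpin library overlapped an empty-vector library. Knockdown raised it by 0.66 ± 0.0654 in the knockout (adjusted p = 1.35e-15) and 0.76 ± 0.0529 in wild type (adjusted p = 4.16e-25), and the difference of -0.10 ± 0.0842 did not pass the test (adjusted p = 0.412). Its paralog COX7A2, a regular subunit, had -0.23 ± 0.0585 in the knockout and 0.11 ± 0.052 in wild type, which missed the threshold (adjusted p = 0.0643).

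The ATP synthase had the largest share of tested members lower in the knockout under the empty vector. Of the 5 subunits of the catalytic head and central stalk, 4 fell and 1 rose in CD33KO_shCTRL relative to WT_shCTRL, and all 4 peripheral stalk subunits fell. Among all tested genes 28.4% fell and 28.3% rose, and differences between parts of the synthase were not tested. ATP5F1B, the catalytic beta subunit, had 411.8, 458.8, 407.0, 394.7 and 411.4 CPM in CD33KO_shPTPN6, 365.3 to 403.2 (median 393.2) in CD33KO_shCTRL, 640.4 to 757.5 (median 720.6) in WT_shPTPN6 and 391.6 to 479.9 (median 427.1) in WT_shCTRL. Only the WT_shPTPN6 libraries stood clear of the other 3 groups, which overlapped. The knockdown effect on ATP5F1B was 0.09 ± 0.0519 in the knockout (adjusted p = 0.151) and 0.72 ± 0.0455 in wild type (adjusted p = 4.87e-28), a difference of -0.63 ± 0.069 (adjusted p = 3.61e-13). ATP5F1A, the alpha subunit, had -0.11 ± 0.0576 in the knockout (adjusted p = 0.129) and 0.45 ± 0.0473 in wild type (adjusted p = 4.62e-15), a difference of -0.56 ± 0.0745 (adjusted p = 5.62e-10).

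ATP5F1C, the gamma subunit that turns inside the head, had the largest fall of the synthase between the hairpin groups. It had 72.28 to 101.2 CPM in CD33KO_shPTPN6, 88.50 to 114.6 in CD33KO_shCTRL, 163.0 to 195.3 in WT_shPTPN6 and 137.4 to 168.2 in WT_shCTRL. The knockout fold change was -1.0 ± 0.0688 under the hairpin and -0.53 ± 0.0626 under the empty vector (adjusted p = 1.55e-25 and 1.3e-12). ATP5F1D, the delta subunit of the same stalk, did not share that fall: it had 0.03 ± 0.0805 under the hairpin (adjusted p = 0.787) and rose by 0.30 ± 0.0797 under the empty vector (adjusted p = 0.000701). ATP5F1E, the epsilon subunit, was the member with the only positive call for the difference between the knockdown effects, at 0.23 ± 0.0664 (adjusted p = 0.00396), with 0.18 ± 0.0492 in the knockout and -0.05 ± 0.0446 in wild type. The rise in the knockout was lost with library totals alone (adjusted p = 0.0933).

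The peripheral stalk, which holds the head still against the rotor, was lower in the knockout line throughout. ATP5PB, ATP5PD, ATP5PF and ATP5PO had log2 fold changes of -0.90, -0.48, -0.60 and -0.60 under the hairpin, each with an adjusted p of at most 1.61e-10. Under the empty vector they had -0.50, -0.31, -0.36 and -0.30, each with an adjusted p of at most 6.61e-06. ATP5IF1, the inhibitor that binds the synthase when the membrane potential is lost, fell with the knockdown, with log2 fold changes of -0.35 ± 0.0606 in the knockout (adjusted p = 9.27e-07) and -0.13 ± 0.0487 in wild type (adjusted p = 0.0145, or 0.117 without WT_shCTRL replicate 6, 0.0793 without WT_shPTPN6 replicate 6 and 0.188 without the filter). ATP5MK, a small membrane subunit tied to synthase dimers, fell, with -0.59 ± 0.0717 and -0.29 ± 0.0558 in the same order. ATP5MJ, another small membrane subunit, rose by 0.38 ± 0.0533 and 0.58 ± 0.0459. ATP5MK and ATP5PF share bases near their 3′ ends with TAF5 and JAM2 on the opposite strand, so their counts are less certain. TAF5 has 727 counts in all libraries against 12808 for ATP5MK, and JAM2 has 502 against 18645 for ATP5PF.

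The rotor ring is built of subunit c, whose mature protein is the same from each of 3 genes, ATP5MC1, ATP5MC2 and ATP5MC3, which differ in the targeting peptide that is cleaved off. ATP5MC2 made up 37.3 to 40.0% of the counts of the 3 genes in CD33KO_shPTPN6, 26.6 to 29.8% in CD33KO_shCTRL, 38.5 to 39.7% in WT_shPTPN6 and 36.1 to 38.0% in WT_shCTRL. The CD33KO_shCTRL libraries were all below those of the other groups. ATP5MC2 itself had 503.7, 557.4, 558.0, 501.9 and 540.4 CPM in CD33KO_shPTPN6, 397.4 to 445.4 (median 430.9) in CD33KO_shCTRL, 733.4 to 945.4 (median 867.6) in WT_shPTPN6 and 630.2 to 723.8 (median 672.1) in WT_shCTRL. The log2 ratio of ATP5MC2 to ATP5MC3 differed by -0.51 in CD33KO_shCTRL relative to WT_shCTRL and by 0.62 in CD33KO_shPTPN6 relative to CD33KO_shCTRL (two-sided exact permutation p = 0.002165 and 0.004329, the smallest these group sizes allow, both adjusted to 0.008658 over 10 tests). With the knockdown in wild type the ratio differed by 0.04 (exact permutation p = 0.1732, adjusted 0.1924). The log2 ratio of ATP5MC1 to ATP5MC3 fell by 0.27 with the knockdown in wild type (exact permutation p = 0.002165, adjusted 0.008658). ATP5MC3 was called in opposite directions, with a log2 fold change of -0.29 ± 0.0498 with the knockdown in the knockout and 0.30 ± 0.0446 in wild type (adjusted p = 6.91e-07 and 3.24e-09).

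**Figure D4:**
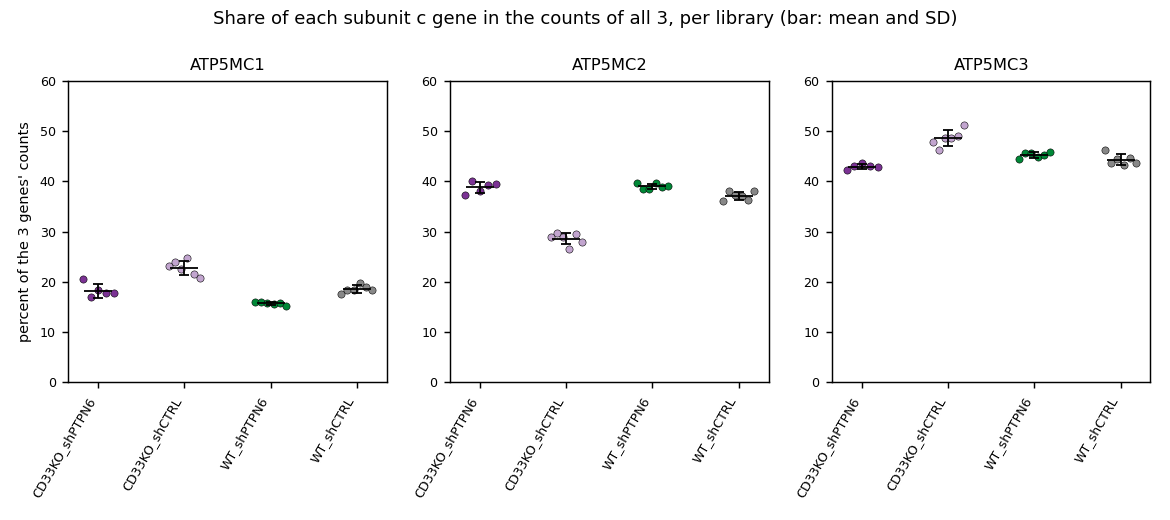
Percent of the counts of the 3 subunit c genes that fell on each (vertical axis, 0 to 60) in the 4 groups; each point is 1 library and the bar is mean and SD. The median ATP5MC2 share is 28.9% in CD33KO_shCTRL and 37.1 to 39.2% in the other groups.

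Most members had a lower signed fold change with the knockdown in the knockout line than in wild type. The difference between the knockdown effects, knockout minus wild type, was called negative for 42 of 82 members and positive for 1, while 13.9% and 14.5% of all tested genes were called in these directions. Its median was -0.26 over the members and 0.0039 over all tested genes. By complex the negative calls were 13 of 37 in complex I, 2 of 4 in complex II, 7 of 10 in complex III, 8 of 12 in complex IV and 12 of 19 in the ATP synthase. Of the 54 members that rose with the knockdown in wild type, 22 also rose in the knockout, 29 were not called there and 3 fell (ATP5MC3, ATP5PB and NDUFS1). Fewer of all tested genes were called in the knockout (20.5% higher and 21.6% lower) than in wild type (30.2% and 30.4%). Calls in both lines together were not counted over all tested genes. Another 10 members fell in the knockout and were not called in wild type, so a lower value was not always a smaller change. For NDUFS1 the fall was lost without CD33KO_shPTPN6 replicate 6 (adjusted p = 0.0529), and the rise in wild type was lost without WT_shPTPN6 replicate 3, with library totals alone and without WT_shCTRL replicates 4 and 6 (adjusted p = 0.0717, 0.277 and 0.0643). For ATP5PB the rise in wild type was lost without WT_shCTRL replicate 2 and with library totals alone (adjusted p = 0.0581 and 0.382). The 6 members that fell with the knockdown in both lines included NDUFA12, NDUFB6, NDUFAB1, ATP5IF1 and ATP5MK. Across the 82 members the 2 sets of fold changes, which come from separate libraries, had a Pearson r of 0.752 and a Spearman rho of 0.68. These describe genes of the same libraries, which are not independent replicates, and were not computed over all tested genes. Of the 82 members, 72 had the lower value in the knockout line. The difference was negative for 6496 of all 13098 tested genes.

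**Figure D5:**
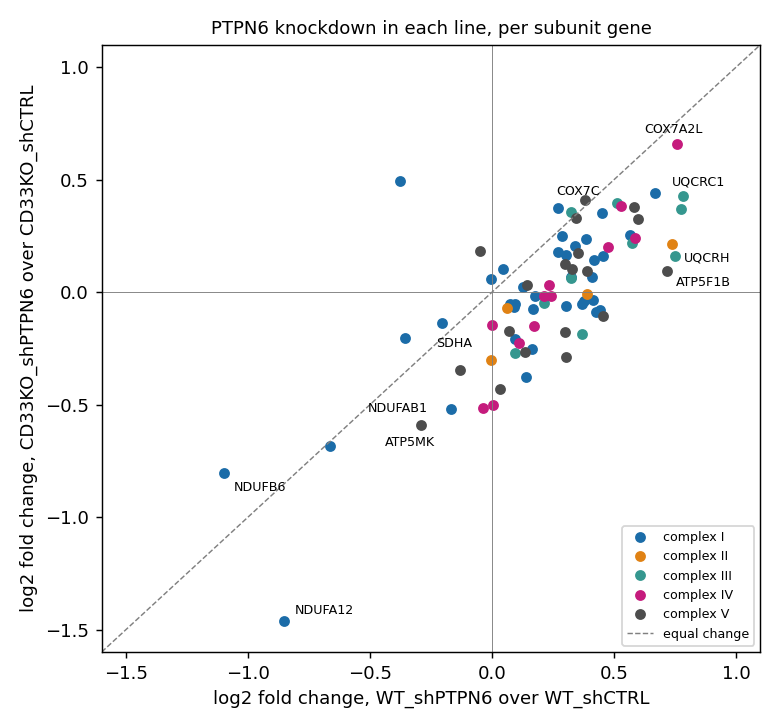
Log2 fold change with PTPN6 knockdown in the CD33 knockout line (vertical axis) against that in wild type (horizontal axis) for the 82 tested members, coloured by complex; the dashed line marks equal change. Of the points, 72 lie below the line, COX7A2L and COX7C lie near it, and UQCRH and ATP5F1B lie far below it.

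With both changes together, CD33KO_shPTPN6 relative to WT_shCTRL, 43 members fell and 20 rose, with 31.7% of all tested genes lower and 32.1% higher, and the median was -0.15 against -0.00014 over all tested genes. With library totals alone, where the median over all tested genes was -0.14, the split was 53 lower and 10 higher. The ATP synthase had 15 of 19 lower and 1 higher and complex IV 9 of 12 lower and 2 higher, while complex I had 14 of 37 lower and 13 higher and complex III 4 of 10 lower and 3 higher. UQCRC1, NDUFS8, COX7A2L and CYC1 rose, with log2 fold changes of 1.18, 0.94, 0.56 and 0.44, and NDUFA12 and NDUFA9 fell, with -2.25 and -1.18.

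Promoters of respiratory genes are known to hold sites of NRF1 and of ETS factors such as GABPA, so the RefSeq promoter windows of GRCh38.p14, 250 bases before to 50 after the start, were searched on both strands. Windows were matched for 71 of the 91 members. The NRF1 motif, GCGCA and GCGC with 1 base of any kind between them, was found in 17 of 71 (23.9%), against 8.58% of the 15843 promoters of protein-coding genes and 6.28% of all 27305 promoters. CCGGAAG (ETS) was found in 20 (28.2%), against 14.2% of the protein-coding and 10.7% of all promoters. AAGATGGC (YY1) was found in 11 (15.5%), against 3.91% and 3.03% of the same sets, and TGACGTCA (CREB) in 5 (7.04%), against 2.59% and 1.98%. TATAAA was found in 7 (9.86%), close to the 9.63% of protein-coding promoters and below the 12% of all promoters. The motifs were searched separately and matches may overlap each other. Of the 16 tested members with the NRF1 motif 14 rose and 1 fell with the knockdown in wild type. Of the 50 without it 29 rose and 6 fell, and this difference was not tested. Among all tested genes 30.2% rose and 30.4% fell in that comparison. Members with the same motif were called in opposite directions with the knockout under the empty vector. With the NRF1 motif 8 fell and 3 rose of 16 tested members, and without it 26 fell and 6 rose of 50. With the ETS motif 11 fell and 3 rose of 20, and without it 23 fell and 6 rose of 46. Among all tested genes 28.4% fell and 28.3% rose. The following sequences are of NDUFA12, which fell, and NDUFB4, which rose, both with the NRF1 motif, and of COX5B, one that rose with the ETS motif. Each is a stretch of 140 bases directly upstream of annotated exons, on the strand of the gene, with matches in capitals (NRF1 in NDUFA12 and NDUFB4, ETS in COX5B).
NDUFA12, chr12:95003771-95003910, minus strand: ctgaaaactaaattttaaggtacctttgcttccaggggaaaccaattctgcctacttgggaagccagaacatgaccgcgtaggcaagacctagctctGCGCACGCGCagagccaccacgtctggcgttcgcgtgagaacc
NDUFB4, chr3:120596169-120596308, plus strand: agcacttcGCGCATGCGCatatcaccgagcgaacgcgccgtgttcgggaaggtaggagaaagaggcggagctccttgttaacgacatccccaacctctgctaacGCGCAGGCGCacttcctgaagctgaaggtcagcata
COX5B, chr2:97645900-97646039, plus strand: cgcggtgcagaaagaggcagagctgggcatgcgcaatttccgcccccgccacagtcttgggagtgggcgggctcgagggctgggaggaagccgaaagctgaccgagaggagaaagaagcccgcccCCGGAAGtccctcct
The NDUFB4 stretch holds 2 matches and the others hold 1 each. A match is a description of letters and not a site shown to be bound.

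Other genes of the same pathway were read from the same fit, where 20.5% of all tested genes rose and 21.6% fell with the knockdown in the knockout, and 30.2% rose and 30.4% fell with it in wild type. All 13 subunits encoded in mitochondrial DNA rose with the knockdown in wild type (median log2 fold change 0.62), while 3 rose and none fell in the knockout (median 0.04), and the difference between these effects was called negative for all 13. Their summed level was 36520 to 38050 CPM in CD33KO_shPTPN6, 33770 to 39610 in CD33KO_shCTRL, 49960 to 60270 in WT_shPTPN6 and 33900 to 37450 in WT_shCTRL. Under the empty vector, 4 of the 13 rose and 1 fell with the knockout, where 28.3% of all tested genes rose and 28.4% fell. Of 55 assembly factors, 8 rose and 9 fell with the knockdown in the knockout and 16 rose and 13 fell in wild type, shares that do not exceed those of all tested genes. COX17, a copper chaperone of complex IV, fell, with log2 fold changes of -0.45 ± 0.0752 and -0.91 ± 0.0624 in the same order (adjusted p = 2.21e-07 and 1.25e-25). Of 13 citric acid cycle genes, 1 rose and 7 fell with the knockdown in the knockout, against 7 and 4 in wild type, and of 73 mitochondrial ribosomal protein genes 10 rose and 19 fell, against 35 and 13. CYCS, cytochrome c, fell by 0.34 ± 0.0656 with the knockdown in the knockout (adjusted p = 5.79e-06) and had 0.10 ± 0.0523 in wild type (adjusted p = 0.0819). Cytosolic ribosomal protein genes, another abundant group, rose with the knockdown in both lines, at 75 of 84 in the knockout and 74 of 84 in wild type (medians 0.77 and 0.54), and their share of all counts was 7.41 to 7.83% in CD33KO_shPTPN6, 4.49 to 4.76% in CD33KO_shCTRL, 9.21 to 9.52% in WT_shPTPN6 and 6.20 to 7.30% in WT_shCTRL. The part of this share in the members' values was not tested.

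Of 12 tested regulators of mitochondrial genes, 4 rose and 0 fell with the knockdown in wild type (median log2 fold change 0.079). In the knockout 4 rose and 1 fell (median 0.21). Over all tested genes 30.2% rose and 30.4% fell in wild type, and 20.5% and 21.6% in the knockout. ESRRA and PPARGC1B, a nuclear receptor and its coactivator, rose in wild type by 0.61 ± 0.0731 and 1.11 ± 0.118 (adjusted p = 2.35e-12 and 9.25e-15). The largest rise there was 1.16, in another regulator. In the knockout the knockdown effect on PPARGC1B was -0.05 ± 0.155 (adjusted p = 0.823), and the difference between the lines was -1.16 ± 0.195 (adjusted p = 5.34e-07). PPARGC1B was the only 1 of the 12 called for this difference, whose median over the 12 was 0.065. TFAM and NRF1 were not called in wild type, with log2 fold changes of 0.01 and -0.14.

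Of the 9 members that did not pass the filter, COX4I2 and NDUFC2-KCTD14 had 0 counts in all libraries, COX6A2 had 1, COX7B2 and ATP5MF-PTCD1 had 2 each, COX8C had 5, COX7A1 had 11 and COX6B2 had 15. These include the tissue-specific isoforms known from muscle, lung and testis, so cytochrome c oxidase was represented by its common isoforms COX4I1, COX6A1, COX6B1, COX7A2, COX7B and COX8A at this depth. NDUFA4L2 had 152 counts and overlaps SHMT2, a gene of 11502 counts on the opposite strand. NDUFA7, an accessory subunit, and NDUFV2, a core subunit that carries an iron-sulfur cluster, passed the filter with only 228 counts each and were not called in any comparison, nor was SDHC. NDUFV2 overlaps another annotated transcript on the same strand near its 3′ end, so its low counts are uncertain as a measure of its level. Pseudogene rows of the members held 2375 counts against 1648673 on the members, 0.144% of both, and exceeded 10% for NDUFV2 (20.6%) and SDHA.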

How the data were processed

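RNA of 24 labelled samples was sequenced from the 3′ ends of polyadenylated transcripts, from 100 ng of total RNA per the labels' protocols, and 23 libraries were used here. The authors deposited raw, unnormalized read counts per gene in 1 matrix. Tools in the submitters' processing notes are STAR 2.7.3a, bcl2fastq, Subread 2.0.0 with featureCounts, hg38, R 3.6.1 and DESeq2 1.26.0, without roles; the annotation release, strand setting and treatment of duplicates are not given in the sources used here. Without strand, reads where a gene overlaps another on the opposite strand could not be assigned with certainty, and the direction of the error is not known. Symbols matched 60261 of 60617 identifiers; positions and overlaps came from gencode release 29 (GRCh38), perhaps not the release counted on.

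In R 4.3.3 with edgeR 4.0.16, genes were filtered with filterByExpr, libraries were scaled by TMM, and a model with a mean for each group was fitted across the 23 libraries (estimateDisp and glmQLFit, robust). All 6 comparisons were adjusted by Benjamini-Hochberg over the 13098 tested genes. The SE is approximate: the log2 fold change divided by the root of F. Subunit c ratios were compared with exact permutation tests in Python 3.11.15 (scipy 1.17.1, pseudocount 0.5), after 2 of 9 listed isoform pairs had at least 10 counts in every library. The fit was also run on simulated counts in which few genes were changed. Such counts cannot show how the scaling handles the wide shifts between these groups, and no result here rests on them. Alternatives were DESeq2 1.42.0, other scalings, no filter, fits to the groups of a comparison alone, the replicate number as a block and leaving out each library.

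Named members were, by rule, up to 5 per direction with the smallest adjusted p for the knockout and for the knockdown in each line, with a mean of at least 5 CPM, 3 per direction for the difference between lines, the member of each complex with the highest mean, the SDH subunits, isoform pairs and untested members. Others were chosen after their values were seen. The values of 1 member are not reported here. The members, lists and tests were chosen with earlier results of these data known.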

Additional observations from a re-analysis of the deposited data

Results flagged for a closer look

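The difference between the PTPN6 knockdown effect in the CD33 knockout and that in wild type passed the edgeR test for 34 of the 56 named members tested. Some of these were named for their small adjusted p, also in this difference, or after their values were seen, so this share is raised by the choice. Of all 82 tested members 42 were negative and 1 positive, against 13.9% and 14.5% of all tested genes. In complex I the difference was -0.61 for NDUFA12, -0.52 for NDUFB9, -0.52 for NDUFS3, -0.41 for NDUFS1, -0.41 for NDUFV1 and -0.35 for NDUFAB1 (log2). In complex II it was -0.30 for SDHA and -0.40 for SDHB. The complex III values were -0.59 for UQCRH, -0.40 for CYC1, -0.36 for UQCRC2, -0.35 for UQCRC1 and -0.26 for UQCRQ. For complex IV they were -0.51 for COX5B, -0.48 for NDUFA4, -0.35 for COX4I1, -0.34 for COX7A2, -0.28 for COX5A, -0.26 for COX6A1, -0.23 for COX6B1 and -0.20 for COX8A. Among head, stalk and rotor subunits of complex V they were -0.63 for ATP5F1B, -0.59 for ATP5MC3, -0.56 for ATP5F1A, -0.47 for ATP5F1C, -0.46 for ATP5MC1, -0.40 for ATP5PB, -0.30 for ATP5PO and -0.24 for ATP5PF. The smaller membrane subunits and the inhibitor had -0.30 for ATP5MK, -0.22 for ATP5MG, -0.21 for ATP5IF1 and -0.21 for ATP5MJ. ATP5F1E, at 0.23, was positive. The calls for ATP5IF1 and ATP5MJ were lost without CD33KO_shPTPN6 replicate 3 (adjusted p = 0.0814 and 0.0503). That for ATP5IF1 was also lost without CD33KO_shPTPN6 replicate 5 and WT_shPTPN6 replicate 5 (0.0548 and 0.0552), and that for SDHA without CD33KO_shPTPN6 replicate 6 (0.0543).

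In 18 of 248 groups of libraries looked at, 1 library lay far from the others in the level of a member, which chance gives in about 1 in 20 groups. WT_shCTRL replicate 6 accounted for 6 of these. It had the highest CPM of its group for NDUFS8 (84.77, others 53.84 to 65.11), UQCRC1 (94.04, others 79.61 to 84.70), COX6A1 (282.3, others 216.0 to 231.7), COX8A (684.2, others 615.8 to 635.4), ATP5IF1 (252.0, others 208.3 to 224.4) and ATP5PD (141.1, others 112.7 to 123.0). WT_shCTRL replicate 2 was low for ATP5PB (149.2, others 167.5 to 178.3). In WT_shPTPN6, replicate 5 was low for ATP5PB (160.3, others 186.2 to 198.5) and NDUFS3 (163.9, others 183.4 to 190.6) and high for NDUFA13 (43.37, others 32.35 to 36.25). Replicate 2 of that group was high for ATP5MK (170.2, others 139.7 to 151.0) and NDUFAB1 (257.6, others 205.4 to 222.0), and replicate 3 was low for ATP5F1D (68.66, others 80.28 to 87.00). In CD33KO_shPTPN6, replicate 3 was high for ATP5F1B (458.8, others 394.7 to 411.8). In CD33KO_shCTRL, replicate 2 was low for ATP5F1B (365.3, others 391.0 to 403.2), replicate 1 was low for UQCRC2 (96.23, others 116.4 to 125.2), replicate 6 was high for ATP5F1A (244.5, others 208.2 to 220.8) and replicate 5 was high for NDUFA4 (322.8, others 276.2 to 287.6).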

How the results depend on the processing

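The counts of members called stayed within 1.5 times under DESeq2, the other scalings save library totals alone, no filter, fits to the groups compared and the replicate block. With library totals alone the count of higher members was 10 with both changes and 14 with the knockdown in the knockout, and ATP5MJ (-0.11) and COX4I1 (-0.016) turned negative with both changes. Median log2 fold changes then were, for all members and complexes I and III, -0.22, -0.13 and -0.21 with the knockout, and -0.48, -0.29 and -0.45 with it under the hairpin, where complex V had -0.61. With the knockdown they were -0.081, -0.12, 0.10, -0.11 and 0.0043 in the knockout and 0.22, 0.19, 0.36, 0.14 and 0.22 in wild type (members, I, III, IV, V), and with both changes -0.29, -0.13, -0.13, -0.21, -0.35 and -0.41 (members, I to V). Summed CPM in CD33KO_shPTPN6 were then 16370 over all members and 4627, 262.7, 2530, 3891 and 5060 for complexes I to V. Without the filter, complexes I, III and V had -0.30, -0.45 and -0.61 with the knockout under the hairpin. With NDUFA4 and NDUFA4L2 set in complex I, its median with the knockdown in wild type was 0.22. Leaving out 1 library at a time, the median ran from -0.043 to 0.031 for complex I with both changes, from 0.41 to 0.50 for complex III with the knockdown in wild type, and for the difference between lines from -0.25 to -0.18 for complex I and from -0.33 to -0.23 for all members.

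Leaving out WT_shCTRL replicates 4 and 6 together was chosen after seeing the data. Medians then were 0.0027, -0.10 and -0.24 for complexes I, IV and V with the knockout, 0.36, 0.53, 0.31 and 0.37 for members and complexes III, IV and V with the knockdown in wild type, -0.055 for complex I with both changes, and -0.33 and -0.31 for members and complex V in the difference between lines. Counts higher and lower then were 13 and 35 with the knockout, 22 and 37 with both changes, 23 and 20 with the knockdown in the knockout, 6 and 66 with the knockout under the hairpin and 1 and 55 for the difference. Replicate numbers did not pair the samples: same-numbered libraries had correlations of -0.05 to 0.03 over 33 pairs. With the replicate block, 20 members in place of 19 fell with the knockdown in the knockout and 41 in place of 42 were negative for the difference, and the other counts did not change. Low totals in the knockout groups limit members below about 5 CPM, such as NDUFA7 and NDUFV2. The causes of these shifts were not tested.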

Other observations

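Most mitochondrial carriers rose with PTPN6 knockdown, where 20.5% of all tested genes rose and 21.6% fell in the knockout and 30.2% and 30.4% in wild type. Of 8 genes for phosphate and nucleotide carriers, voltage-dependent channels and the uncoupler UCP2, 5 rose and 1 fell with PTPN6 knockdown in the CD33 knockout (median log2 fold change 0.18), and 7 rose and 1 fell with it in wild type (median 0.34). Of 15 genes for electron carriers and coenzyme Q synthesis, 2 rose and 5 fell with the knockdown in the knockout (median -0.18), and 5 rose and 3 fell in wild type (median 0.13). Among assembly factors, SDHAF2, which helps attach the flavin to SDHA, had a knockdown effect of -0.05 ± 0.102 in the knockout and 0.72 ± 0.0799 in wild type, a difference of -0.77 ± 0.129 (edgeR adjusted p = 5.43e-07). COX10, an enzyme of the pathway to the haem of complex IV, rose with the knockdown by 0.44 ± 0.121 in the knockout and 0.75 ± 0.0976 in wild type (edgeR adjusted p = 0.00174 and 4.91e-11).

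Summed levels of markers of other cell types differed between groups, but these sums rest on few genes. The filter on low counts passed 3 of 7 epithelial and HEK-293 markers, 7 of 9 of fibroblasts and endothelium and 1 of 6 of muscle. With the knockout under the empty vector, the 3 epithelial and HEK-293 markers ran from a log2 fold change of -5.84 to 2.15. Markers of epithelial and HEK-293 cells summed to 89.93 to 111.8 CPM in CD33KO_shPTPN6, 103.4 to 138.1 in CD33KO_shCTRL, 63.21 to 103.2 in WT_shPTPN6 and 45.64 to 64.58 in WT_shCTRL. Markers of fibroblasts and endothelium summed to 726.4 to 780.0, 429.9 to 473.4, 382.6 to 450.0 and 183.8 to 210.8 CPM in the same order. Markers of striated muscle, the tissue that uses COX6A2 and COX7A1, summed to 14.55 to 18.68, 67.15 to 85.16, 19.47 to 25.27 and 173.4 to 193.5 CPM, while COX6A2 and COX7A1 had 1 and 11 counts in all libraries. Their part in the members' values was not tested.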
